A study of Mus musculus with 12 samples.

Results

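Long intergenic noncoding RNAs (lincRNAs) are long transcripts, made from their own genes between the protein-coding ones, that are not read into protein. In mouse samples labelled liver, 151 lincRNA genes were expressed at 1 FPKM or more in at least 3 of 12 libraries, of 2768 rows with the type lincRNA and 35275 rows in all. FPKM counts sequenced fragments scaled to gene length and to library depth, so it can be compared between genes. The members were thus chosen by their levels, and the levels themselves are a description. The mice carried either the wild-type genotype or a liver knockout of Hnf4a, which encodes a nuclear receptor that hepatocytes need for much of their own gene program. They ate vivarium chow or a high fat diet. Each of the 4 groups had 3 libraries: wild type on chow (WTVC), wild type on high fat diet (WTHF), knockout on chow (KOVC) and knockout on high fat diet (KOHF). How the knockout was driven, and the age, sex and strain of the mice, are not stated in the labels. The series design calls the 3 samples of each group biological replicates.

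Some lincRNAs act in the nucleus, such as Malat1 in the speckles that hold splicing factors and Neat1, on which paraspeckles are built. Others are carriers: small nucleolar RNAs (snoRNAs), which guide the chemical modification of ribosomal RNA, and microRNAs, which lower the output of target mRNAs, are cut from their introns or exons. Many lincRNAs start beside a coding gene and run away from it.

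Libraries held 15705196 to 20311766 gene reads. The Hnf4a transcript did not follow the genotype labels: it stood at 98.8 to 158 FPKM in the 6 libraries labelled knockout, 116 to 133 FPKM in WTHF, and 126, 75.8 and 0.0973 FPKM in WTVC1, WTVC2 and WTVC3. The groups are therefore the libraries labelled so. The library WTVC3 did not have the markers of its labelled tissue. The summed level of 7 hepatocyte markers was 16.6 FPKM there while the other 11 held 19843 to 59365 FPKM, and 6 brown fat markers summed to 6301 FPKM there and 27.1 to 121 FPKM elsewhere. The 19843 FPKM was WTVC2, where each of the 7 hepatocyte markers was lower than in the 10 libraries other than WTVC2 and WTVC3. Cyp2c29 was 0.545 FPKM in WTVC2 and 60.3 to 701 FPKM in those 10, and Cyp3a11 2.99 FPKM and 67.2 to 3546 FPKM. Over the 151 lincRNAs, the median correlation of a library with the other 11 on the log2(FPKM + 1) scale was 0.516 for WTVC3, 0.641 for WTVC2, 0.856 for KOHF1 and 0.907 to 0.942 for the other 9. Each comparison is given for all 12 libraries and for the 10 left without WTVC2 and WTVC3. In the fit of 10 libraries WTVC is 1 library, whose spread is taken from the other groups.

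The lincRNAs that passed were few and low beside coding genes. The share of rows that passed was 5.46% for lincRNAs and 47.3% for protein-coding genes (10417 of 22026), and 1570 lincRNA rows had no read in any library. The median of the mean level was 1.88 FPKM over the 151 lincRNAs and 6.59 FPKM over the coding genes that passed the same rule, with median gene lengths of 1226 and 2978 bases. Of the 151, 22 had a mean of at least 10 FPKM and 80 a mean under 2 FPKM. In all 12 libraries 34 reached 1 FPKM, 44 did so in 10 or 11, 36 in 6 to 9 and 37 in 3 to 5. At the edge of the rule, the third highest value was 1.01 FPKM for Gm27012 and 1.02 FPKM for Gm11342 and Gm13056, which were kept, and 0.996 FPKM for Gm16755, 0.994 FPKM for Gm27010 and 0.987 FPKM for Gm26910, which were not. Between 70 (WTVC3) and 124 (KOHF1) of the 151 reached 1 FPKM in a single library.

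Most of the 151 had provisional names, 44 of the Gm series, 58 of the Rik series and 28 clone names, and the present annotation types some of these genes differently. Of the 151 identifiers, 139 are in GENCODE M21 on GRCm38, where 103 are typed lincRNA, 14 antisense, 10 bidirectional promoter lncRNA and 2 protein-coding (Fam169b and Slc6a16). The start of a coding gene on the opposite strand lay within 5000 bases of the start of 56 members. RefSeq on GRCm38 also types 1810058I24Rik, C330006A16Rik (as Tmem250-ps) and Gm6712 as protein-coding. A coding row of the table overlapped 32 members. A coding gene of GENCODE M21 on either strand overlapped 42, with Fam169b and Slc6a16 counted through their own entries. Reads from overlapping genes, and from opposite strands if the counting did not use strand, cannot be told apart here.

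**Figure D1:**
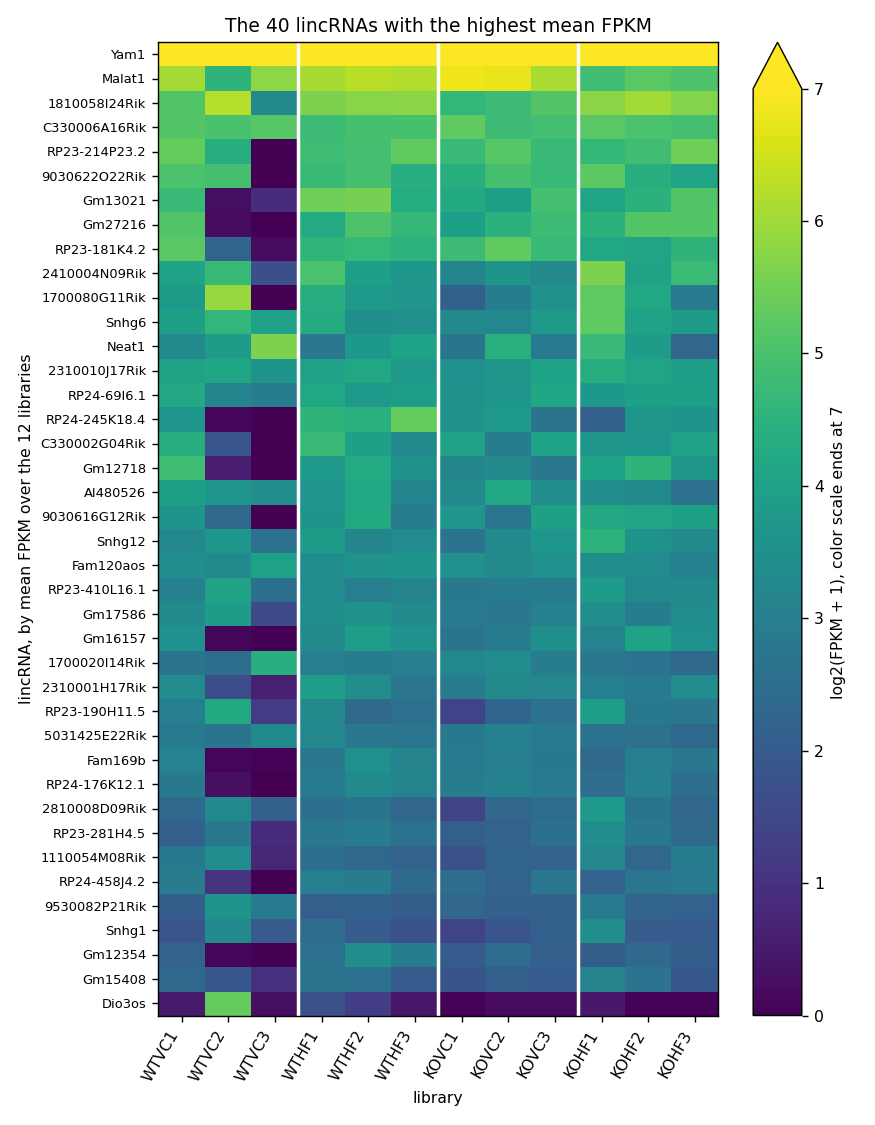
Levels of the 40 lincRNAs with the highest mean FPKM (rows) in the 12 libraries (columns, groups parted by white lines), as log2(FPKM + 1) with the color scale ending at 7. Yam1 lies above the scale in every library, and a block of lincRNAs that are bright in the other libraries is dark in WTVC3, in WTVC2 or in both.

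The most abundant lincRNA by far was Yam1 (ENSMUSG00000098178, chromosome 17, 39846958 to 39848788, plus strand, GRCm38), which is named Gm42418 in present annotation. It stood at 4479, 3823 and 889 FPKM in WTVC, 5016, 4868 and 5928 FPKM in WTHF, 7420, 1449 and 3289 FPKM in KOVC and 1585, 1670 and 2266 FPKM in KOHF. It took 0.163% to 1.36% of the reads of a library, while the other 150 lincRNAs together took 0.121% to 0.225%. The RefSeq annotation of the same build places Rn18s-rs5, an 18S ribosomal RNA pseudogene, over the same stretch. Ribosomal RNA fragments and the lincRNA cannot be told apart in this value. All KOHF values lay under all WTHF values, but within KOVC the lowest and highest libraries spanned the values of KOHF and WTHF. The difference between KOHF and KOVC was −0.85 on the log2(FPKM + 1) scale (SE 0.50, limma adjusted p = 0.287 with 10 libraries).

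Malat1 (ENSMUSG00000092341, chromosome 19, 5795690 to 5802672, minus strand) was the next most abundant, and its level was lower in KOHF than in KOVC and WTHF. It stood at 111, 107 and 67.9 FPKM in KOVC1 to KOVC3 and at 28.1, 35.7 and 32.9 FPKM in KOHF1 to KOHF3. In WTHF it was 66.5, 76.7 and 72.7 FPKM, and in WTVC 66.0, 22.6 and 55.6 FPKM, with the low value in WTVC2. All 3 KOHF libraries lay below every library of WTHF and KOVC, and WTVC2 below every KOHF library. The mean was 95.5 ± 24.0 FPKM (SD, n = 3) in KOVC and 32.2 ± 3.81 FPKM (SD, n = 3) in KOHF. On the log2 scale Malat1 fell by 1.51 between them with 10 libraries (SE 0.19, limma adjusted p = 0.0129), a call that was also made with 9 libraries, without KOHF1 (adjusted p = 0.0460), and by limma-voom on the recovered reads of the 10 (adjusted p = 0.0142). With all 12 libraries the same difference had an SE of 0.38 and an adjusted p of 0.649. The call was lost when KOVC1 (adjusted p = 0.0767) or KOVC2 (adjusted p = 0.0936), the 2 libraries with the highest levels, was left out of the 10. The difference from WTHF was −1.14 and did not pass (limma adjusted p = 0.109 with 10 libraries, 1 with 12).

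The end of Malat1 shows how this transcript is built: it has no poly(A) tail, and a run of adenosines in its last part pairs with uridine-rich stretches before it in a triple helix. The window shown is, in the GENCODE M21 transcript, positions 6604 to 6725 of 6983, at chr19:5795948-5796069 of GRCm38 on the minus strand, with the run of 12 adenosines in capitals. The run ends 298 bases before the annotated 3′ end. RefSeq also annotates a small RNA, Mascrna, that overlaps Malat1, and where the mature Malat1 transcript ends was not examined.
Malat1: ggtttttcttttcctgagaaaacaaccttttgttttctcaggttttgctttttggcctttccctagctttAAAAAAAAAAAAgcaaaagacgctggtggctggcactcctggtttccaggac

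The other nuclear and chromatin RNAs of this kind among the 151 were Neat1, Meg3 and Jpx, and none passed the threshold in any contrast of either fit. Neat1 (chromosome 19, 5824708 to 5845478, minus strand) is annotated close to Malat1. Its level was 47.8 FPKM in WTVC3, the highest of all libraries, 25.3 FPKM in KOHF1 and 3.95 FPKM in KOHF3, and its groups overlapped. Meg3, an imprinted RNA expressed from the maternal copy, was 7.13 and 5.74 FPKM in KOVC2 and KOVC3 but 1.52 FPKM in KOVC1, and 0.0401 to 2.93 FPKM in the other 9 libraries. Jpx, an X-linked RNA that activates Xist, ran from 0.700 to 1.54 FPKM in all but WTVC3, where it was 0.207 FPKM. Of a list of 19 such RNAs, 7 could be tested over all genes: with 10 libraries 1 fell and 0 rose between KOVC and KOHF (Malat1), where 6.24% of all genes were called lower and 1.52% higher, and with 12 libraries none passed.

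**Figure D2:**
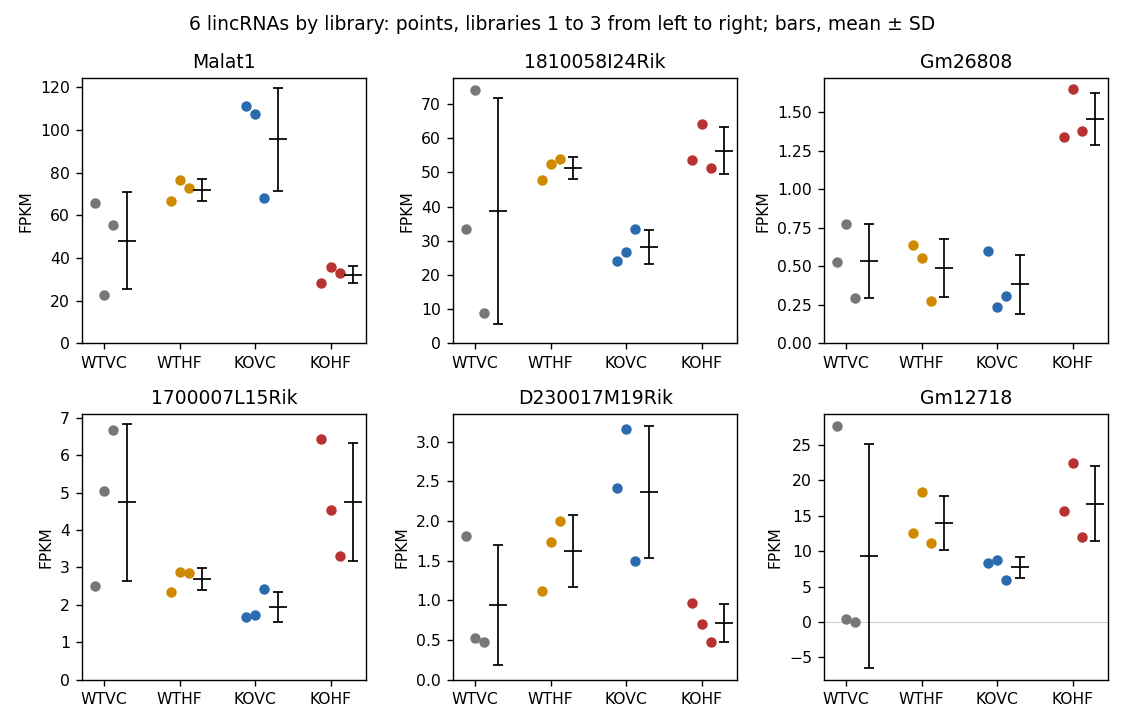
FPKM of the 6 lincRNAs past the threshold between KOHF and KOVC in the fit of 10 libraries, in each library of the 4 groups (points), with the group mean and SD (bars). The KOHF and KOVC points do not overlap in any of the 6 panels, and the WTVC points spread widely in most. For Gm26808, which reached 1 FPKM in KOHF only, the rule of the list fixed this lack of overlap.

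Across the 5 contrasts of the fit of all 12 libraries, none of the 151 lincRNAs passed the threshold of limma's adjusted p under 0.05. The background over the 12251 genes tested was as low: 0% of genes passed for KOVC against WTVC, 0.155% for KOHF against WTHF, 0% for WTHF against WTVC, 0.155% for KOHF against KOVC and 0.122% for the interaction, the difference between the diet effects in the 2 genotypes. At an unadjusted p under 0.05, the counts of lincRNAs were 26, 7, 31, 10 and 27 in that order, or 17.2%, 4.64%, 20.5%, 6.62% and 17.9% of the 151. Over all genes tested the shares were 21.1%, 1.27%, 14.7%, 7.54% and 16.6%. In the same 12 libraries limma-voom on the recovered reads called 0 in each. With 10 libraries, 6 lincRNAs passed between KOHF and KOVC, 4 higher and 2 lower (3.97% of 151). Without Gm26808, which reached 1 FPKM in KOHF only and so had to differ, it was 5 of 150 (3.33%), 3 higher and 2 lower. The share over all genes tested was 7.76%, or 1.52% higher and 6.24% lower, so the lincRNAs' total lay under the background. The calls depended on single libraries: leaving 1 more of the 10 out gave 0 to 9 lincRNAs, with 0 without KOVC1 or KOVC2 and 1 without KOHF1, and 17 to 1535 of all genes tested, where the 10 gave 951. Leaving out a WTHF library keeps this difference as it is and changes only its SE and p. WTVC1, alone in its group, was not left out in turn. The median log2 difference was 0.04 over the lincRNAs and −0.06 over all genes. No lincRNA passed in the other 4 contrasts with 10 libraries, where the background was 0.00816% (KOVC against WTVC), 0.18% (KOHF against WTHF), 0.00816% (WTHF against WTVC) and 0.0816% (interaction). At an unadjusted p under 0.05 those contrasts held 6, 21, 11 and 11 lincRNAs, or 3.97%, 13.9%, 7.28% and 7.28%, beside 2.8%, 12.5%, 2.38% and 10.2% of all genes tested.

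The gene 1810058I24Rik (ENSMUSG00000073155, chromosome 6, 35252654 to 35263496, plus strand) is a lincRNA by the deposited type and protein-coding in RefSeq. It has been described as the source of a small mitochondrial protein. It stood at 24.0, 26.8 and 33.6 FPKM in KOVC and at 53.6, 64.2 and 51.2 FPKM in KOHF, and its 3 WTHF libraries held 47.8, 52.6 and 53.9 FPKM. The KOVC libraries were thus low beside both high fat groups. The WTVC libraries spread from 8.78 FPKM in WTVC3 through 33.4 FPKM in WTVC1 to 74.2 FPKM in WTVC2. It rose by 0.98 on the log2 scale from KOVC to KOHF with 10 libraries (SE 0.15, limma adjusted p = 0.0277). With all 12 the difference was the same but did not pass (adjusted p = 0.676), and with 9 the adjusted p was 0.0632.

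Another of the 4 higher lincRNAs, 1700007L15Rik (chromosome 16, 33379855 to 33380727, minus strand), lies 48 bases from Zfp148, a zinc finger gene on the opposite strand. It stood at 1.68, 1.74 and 2.42 FPKM in KOVC and at 6.44, 4.53 and 3.30 FPKM in KOHF (log2 difference 0.94, SE 0.20, limma adjusted p = 0.0371 with 10 libraries). The WTHF libraries held 2.34, 2.87 and 2.85 FPKM, and WTVC1 to WTVC3 held 2.51, 5.04 and 6.66 FPKM. Zfp148 itself differed by −0.41 in the same contrast and did not pass (limma adjusted p = 0.157), and the difference between the 2 genes was not tested.

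Gm12718 (chromosome 4, 103382500 to 103492040, plus strand), which contains an annotated microRNA gene, stood at 8.35, 8.80 and 5.98 FPKM in KOVC and at 15.6, 22.4 and 11.9 FPKM in KOHF. The 2 groups did not overlap (log2 difference 0.99, SE 0.25, limma adjusted p = 0.0479 with 10 libraries). It was 27.6 FPKM in WTVC1 but 0.482 FPKM in WTVC2 and had no read in WTVC3. Gm26808 (chromosome 5, 109922649 to 109923481, minus strand) overlaps Gm15446 on the opposite strand. It reached 1 FPKM only in KOHF, at 1.34, 1.65 and 1.38 FPKM, and held 0.240 to 0.775 FPKM elsewhere. Its log2 difference of 0.83 is a description, since it entered the list through that group.

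The other lower lincRNA was D230017M19Rik (chromosome 1, 72236465 to 72274869, plus strand), which overlaps Pecr, the gene of a peroxisomal reductase of fatty acid elongation, on the opposite strand. It stood at 2.42, 3.16 and 1.501 FPKM in KOVC and at 0.962, 0.708 and 0.476 FPKM in KOHF, with 1.11, 1.74 and 2.002 FPKM in WTHF. It fell by 0.95 with 10 libraries (SE 0.22, limma adjusted p = 0.0397). Pecr, at 188 to 254 FPKM in KOVC and 197 to 251 FPKM in KOHF, differed by 0.11 (adjusted p = 0.746). With 9 libraries only Malat1 of the 151 was called (0.662%), and the background fell to 0.318% of genes (0.196% higher and 0.122% lower). Over all settings tried, the highest adjusted p was 1 for each of the 5 calls other than Gm26808, and the lowest was 0.00194 for Malat1, 0.00739 for 1810058I24Rik, 0.00748 for 1700007L15Rik, 0.0418 for Gm12718 and 0.00854 for D230017M19Rik. Exocrine pancreas markers moved with KOHF: their summed level was 45.2 to 78.0 FPKM there and at most 5.03 FPKM elsewhere, with all 8 markers at 0 in WTVC3. Heart and skeletal muscle markers summed to 2.03 to 3.06 FPKM in KOHF and 6.89 to 79.5 FPKM in the other groups. Not every marker of this set was low in KOHF: Myl7 was 1.68 to 2.65 FPKM there and 0 to 5.20 FPKM elsewhere. The 79.5 FPKM was WTHF2, where Acta1 alone was 39.2 FPKM. Paneth cell and gut markers summed to 6.92 to 22.9 FPKM in KOHF and 0 to 1.80 FPKM elsewhere. Their part in these differences was not tested. In bulk tissue, fewer cells of a type and less RNA per cell cannot be told apart.

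Without a threshold on p, 14 lincRNAs were higher and 14 lower in every KOHF library than in every KOVC library (9.27% each), against 9.98% and 21.6% of all genes tested. Between KOHF and WTHF, 5 were higher (3.31%, background 7.37%) and 16 lower (10.6%, background 12.4%). Gm26808 is counted among the 14 and among the 5 that were higher in KOHF. It entered the list through KOHF alone, so its place in both counts was fixed by the rule. Between KOVC and WTVC, 10 were higher (6.62%, background 12.4%) and 8 lower (5.3%, background 4.43%). Between WTHF and WTVC, 18 were higher (11.9%, background 6.82%) and 3 lower (1.99%, background 4.35%). These last 2 comparisons rest on WTVC, 2 of whose 3 libraries stood apart.

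The lincRNAs with the smallest p in the contrasts with WTVC were 1700001L05Rik and Gm16675. The first (chromosome 15, 83357526 to 83367282, minus strand) was 0.742, 0.210 and 0.320 FPKM in WTVC, 1.80, 1.91 and 2.61 FPKM in WTHF, 2.13, 2.47 and 1.74 FPKM in KOVC and 1.24, 1.75 and 0.649 FPKM in KOHF. WTVC lay below WTHF and KOVC without overlap, but WTVC2 and WTVC3 stood apart. With 10 libraries WTVC is WTVC1 alone, at 0.742 FPKM. The log2 differences were 1.14 for KOVC against WTVC (SE 0.23, limma adjusted p = 0.195) and 1.13 for WTHF against WTVC (SE 0.23, adjusted p = 0.307) with 12 libraries, which share their WTVC controls. Gm16675 (chromosome 8, 46730972 to 46739515, minus strand) lies 230 bases from Irf2, the gene of an interferon-responsive transcription factor. It was 0.660, 0.0806 and 0.414 FPKM in WTVC and 1.71, 1.52 and 1.68 FPKM in WTHF. The log2 difference was 0.95 (SE 0.19, limma adjusted p = 0.307 with 12 libraries, WTVC2 and WTVC3 included). KOVC held 1.08, 1.35 and 1.02 FPKM and KOHF 0.544, 0.911 and 0.989 FPKM, so KOHF was lower than both WTHF and KOVC in every library.

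Gm10804 (chromosome 2, 93452819 to 93469871, plus strand), which overlaps Cd82 on the opposite strand, had the smallest p between KOHF and WTHF with 12 libraries. It was 7.20, 2.65 and 4.38 FPKM in WTHF and 0.442, 1.70 and 0.454 FPKM in KOHF, with 0.624 to 0.911 FPKM in KOVC. WTHF was the only group in which all libraries passed 2 FPKM (log2 difference of KOHF from WTHF −1.61, SE 0.40, limma adjusted p = 0.991 with 12 libraries and 0.293 with 10). Gm15889 and Gm12354 also had small p between WTHF and WTVC (limma adjusted p = 0.307 for each with 12 libraries, WTVC2 and WTVC3 included). Gm12354 was 5.28, 9.91 and 6.77 FPKM in WTHF, 3.63 FPKM in WTVC1, 0.0958 FPKM in WTVC2 and without a read in WTVC3.

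Of the 151, 8 hold a snoRNA or scaRNA gene on the same strand in GENCODE M21. In 2900076A07Rik this is Mir1839, also annotated as a microRNA. The 7 members of the snoRNA host list were Snhg1, Snhg6, Snhg7, Snhg12, Snhg18, 2810008D09Rik (now Snhg20) and 2410004N09Rik (now Epb41l4aos). snoRNA host genes often start in a run of pyrimidines, as do genes of the translation machinery. Of these 7, 5 have a promoter entry, and 3 of the 5 hold a run of at least 8 pyrimidines near the start (10 bases before to 20 after it). The longest run was 6 bases in Snhg7 and 4 in 2810008D09Rik. The 60 bases around the start of the 3 are shown with the run in capitals, from RefSeq on GRCm38.p6. They lie at chr19:8723457-8723516 (plus strand), chr4:132308648-132308707 (plus strand) and chr15:32244633-32244692 (minus strand).
Snhg1: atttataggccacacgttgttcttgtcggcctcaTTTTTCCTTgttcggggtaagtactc
Snhg12: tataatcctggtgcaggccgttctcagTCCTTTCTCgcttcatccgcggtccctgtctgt
Snhg18: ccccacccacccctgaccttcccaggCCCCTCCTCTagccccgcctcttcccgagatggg
A run of at least 8 pyrimidines (C or T) was found in this window for 16 of the 89 members with a promoter in the RefSeq table (18.0%) and for 3517 of all 27025 genes in it (13.01%). The letters AAAGTCC, the core of the HNF4 recognition sequence, were found on either strand of the promoter (250 bases before to 50 after the start) of 2 of the 89 members (2.25%) and 4.84% of all genes. These matches are descriptions of the letters.

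**Figure D3:**
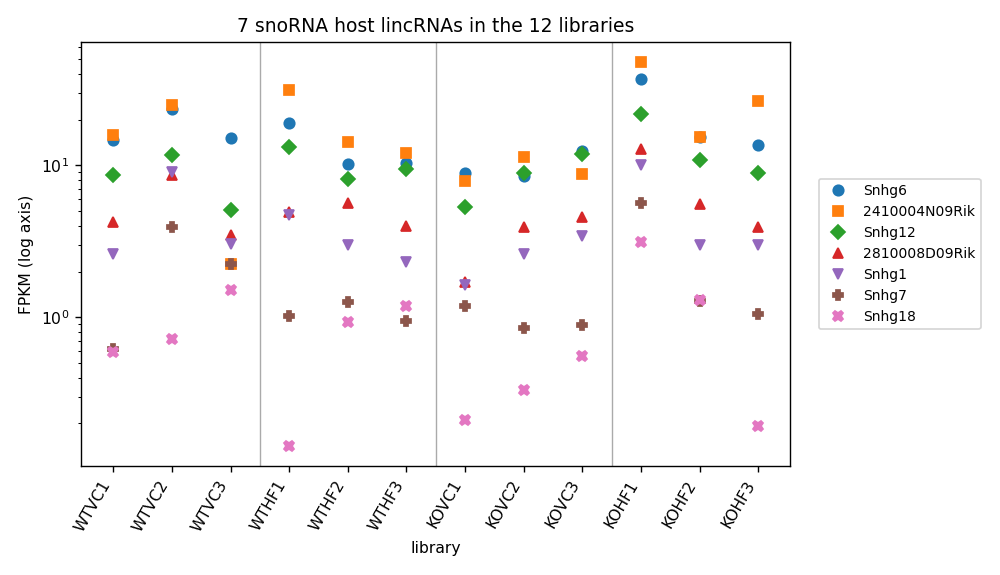
FPKM (log axis) of the 7 snoRNA host lincRNAs in the 12 libraries, with groups parted by vertical lines. The highest point of each of the 7 hosts lies in KOHF1, such as 37.1 FPKM for Snhg6.

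KOHF1 held the highest level of all 12 libraries for each of the 7 hosts, such as 37.1 FPKM for Snhg6, 21.9 FPKM for Snhg12, 12.8 FPKM for 2810008D09Rik and 5.64 FPKM for Snhg7. Snhg6 was 14.7, 23.7 and 15.1 FPKM in WTVC, 19.0, 10.2 and 10.4 FPKM in WTHF, 8.88, 8.57 and 12.5 FPKM in KOVC, and 15.5 and 13.6 FPKM in KOHF2 and KOHF3. The KOHF and KOVC libraries did not overlap for Snhg6 (log2 difference 0.95, SE 0.37, limma adjusted p = 0.124 with 10 libraries), and the difference was 0.52 without KOHF1. 2410004N09Rik was 7.92, 11.3 and 8.74 FPKM in KOVC and 48.4, 15.3 and 26.5 FPKM in KOHF (log2 difference 1.46, SE 0.42, adjusted p = 0.0635). Neither passed the threshold. Of 18 tested genes of the snoRNA host list, 14 were higher in KOHF than KOVC by estimate with a median of 0.55, beside −0.06 over all genes, and of 0.10 without KOHF1, beside −0.13. By the test with 10 libraries 0 rose and 1 fell (RP24-439I22.1, not among the 151), where 1.52% of all genes were called higher and 6.24% lower. That call was lost when any single library of WTHF, KOVC or KOHF other than KOVC3 was left out. WTVC1 was not left out in turn. 2410004N09Rik passed instead, as higher, without KOHF2.

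The coding partners of these RNAs were counted in the same contrast with 10 libraries, where the background was 1.52% of genes higher and 6.24% lower. Of 9 proteins of paraspeckles and speckles, 4 fell and 0 rose: Son (log2 difference −0.90), Srrm2 (−0.81), Srsf2 (−0.67) and Sfpq (−0.58). Son and Srrm2 form the core of nuclear speckles, Srsf2 is a splicing factor and Sfpq a paraspeckle protein. Of 7 genes of microRNA processing, 3 fell and 0 rose: Ago1 (−0.71), Dicer1 (−0.65) and Ago2 (−0.56). Of 8 proteins of snoRNA particles, 1 rose (Nop10, 0.82) and 0 fell. Of 10 genes of the nuclear exosome, 0 passed. These calls were not stable: with 12 libraries no gene of these lists passed in this contrast. In the 10 libraries the 4 speckle calls became 0 when any of KOVC1, KOVC2, KOHF1, KOHF3 or a WTHF library was left out, 1 without KOHF2 and 3 without KOVC3. The 3 microRNA processing calls became 4 without KOVC3 and 0 without any other single library of WTHF, KOVC or KOHF. Nop10 was the sole snoRNA particle call, which became 0 without any of these libraries but KOVC3. WTVC1 was not left out in turn.

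Of the 151 lincRNAs, 9 hold a microRNA gene on the same strand, and the mature sequences of some show which families they carry. The seed, bases 2 to 8, is in capitals, and the sequences are from RefSeq on GRCm38.p6.
mmu-miR-29b-3p: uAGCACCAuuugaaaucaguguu
mmu-miR-29c-3p: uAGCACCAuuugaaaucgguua
mmu-miR-101a-3p: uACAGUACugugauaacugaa
mmu-miR-142a-3p: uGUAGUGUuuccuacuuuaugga
mmu-miR-30c-5p: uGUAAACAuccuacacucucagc
mmu-let-7d-5p: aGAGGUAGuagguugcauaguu
The first 2, both in A330023F24Rik, share their seed. Their host was near the rule's edge, at 0.482 to 1.43 FPKM over the 12 libraries. The host of Mir101a, E130102H24Rik, was 4.91, 0.931 and 1.39 FPKM in WTVC, 4.09, 3.24 and 3.84 FPKM in WTHF, 2.59, 6.25 and 3.52 FPKM in KOVC and 4.76, 1.34 and 2.45 FPKM in KOHF. Its groups overlapped. A430104N18Rik, now Mir142hg, host of a microRNA of blood cells, was 7.30 FPKM in WTVC2 and 0.460 to 2.46 FPKM in the other 11 libraries. Gm27028, host of Mir30c-2, was 0 to 2.71 FPKM, and 6720427I07Rik, host of Mirlet7d, 0.580 to 2.04 FPKM. None of the 9 hosts passed the threshold with 12 libraries, and with 10 only Gm12718 did.

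Many of the lincRNAs had little or no signal in WTVC2 and WTVC3. In WTVC3, 36 of the 151 (23.8%) stood under 0.1 of the median of the 10 other libraries, against 9.96% of the coding genes that passed the same rule. In WTVC2 it was 24 (15.9%) against 4.68%, and in both 18 (11.9%) against 3.3%. The lincRNAs also had lower levels than those coding genes, and the part of this in the shares was not tested. RP23-214P23.2 was 24.2 to 42.8 FPKM in the 10 libraries, 19.7 FPKM in WTVC2 and without a read in WTVC3, and 9030622O22Rik, which lies 2674 bases from Foxa2, a liver transcription factor gene, was 15.9 to 36.7 FPKM, 29.8 FPKM and without a read. Both were thus missing from WTVC3 only. Gm13021 was 14.8 to 46.6 FPKM in the 10 and 0.190 and 0.866 FPKM in WTVC2 and WTVC3. Gm27216 was 14.3 to 33.7 FPKM in the 10, 0.167 FPKM in WTVC2 and without a read in WTVC3. RP24-245K18.4, now C730036E19Rik, was 3.45 to 40.04 FPKM in the 10, 0.0963 FPKM in WTVC2 and without a read in WTVC3. RP23-181K4.2 was 15.9 to 38.3 FPKM in the 10, 3.75 FPKM in WTVC2 and 0.150 FPKM in WTVC3.

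**Figure D4:**
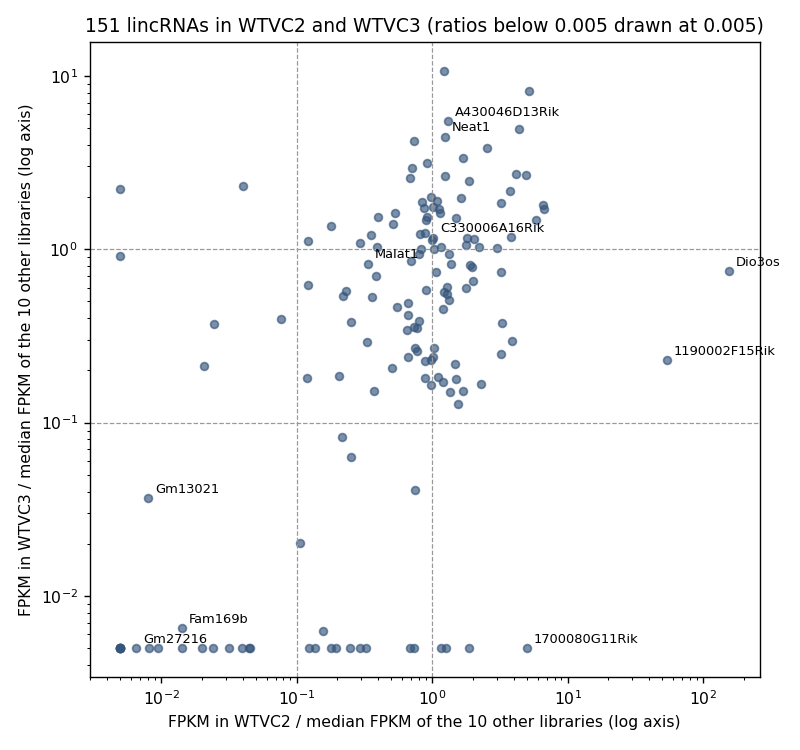
Each of the 151 lincRNAs by its FPKM in WTVC2 (horizontal) and WTVC3 (vertical), divided by its median FPKM in the 10 other libraries (log axes, ratios under 0.005 drawn at 0.005, dashed lines at 0.1 and 1). The row of points along the lower edge holds lincRNAs with few or no reads in WTVC3, and 18 lie under 0.1 on both axes.

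Some lincRNAs were high in these libraries. In WTVC2, 15.2% of the 151 stood above 2 times the median of the 10 against 20.2% of coding genes, and in WTVC3 12.6% against 15.3%. Dio3os, the opposite strand partner of the deiodinase gene Dio3, was 39.5 FPKM in WTVC2 and 0.0407 to 2.33 FPKM in the other 11. 1190002F15Rik, now Lockd, next to the cell cycle inhibitor gene Cdkn1b, was 26.2 FPKM in WTVC2, 8.72 FPKM in KOHF1 and 0 to 1.37 FPKM in the other 10. 1700080G11Rik was 59.9 FPKM in WTVC2, 37.7 FPKM in KOHF1, without a read in WTVC3 and 3.55 to 19.5 FPKM in the other 9. In KOHF1, 41 of the 151 (27.2%) stood above 2 times the median of the other 9 of the 10 libraries, against 8.5% of coding genes. There 13 (8.61%) stood under 0.5 of that median, against 3.72%, and KOHF1 was the highest of the 10 for 35.1% against 31.5%. Of the 151, 19 (12.6%) were above 2 times in both KOHF1 and WTVC2, against 6.85%. The rule took in 3 of the 151 through WTVC2, WTVC3 and KOHF1 alone. That these 3 lincRNAs were higher there than in the other 9 libraries was thus fixed by the choice. The shares for WTVC2, WTVC3 and KOHF1 include them. C330006A16Rik, now Tmem250-ps and typed protein-coding in RefSeq, was the steadiest of the abundant members, at 26.9 to 38.2 FPKM in all 12 libraries. Gm20748, now Bvht, an RNA studied in heart development, was 6.29 FPKM in WTVC3 and 1.22 to 3.16 FPKM in the other 11. AI662270, the remaining listed lincRNA, was 0.382 to 2.19 FPKM over the 12 libraries. Gm15611 was 11.6 FPKM in KOVC1 and 0 to 4.62 FPKM in the other 11. Over the 10 libraries, 19 lincRNAs (12.6%) ranged under 2-fold, against 47.5% of coding genes. The part of the lincRNAs' lower levels in this share, and in those above for WTVC2, WTVC3 and KOHF1, was not tested.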

How the data were processed

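Total RNA of 12 mouse samples labelled liver was sequenced. The authors deposited FPKM values with gene length, type and coordinates (per the file headers). The submitters' processing notes list CASAVA, STAR, TopHat, HTSeq 0.6.1 and DESeq2, as version 2, beside the builds GRCm38 and mm10. No source used here says which aligner made the values or whether strand was used. Every column was matched to a sample by title.

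FPKM times gene length gave whole reads for 100% of values (tolerance 0.1 read). Values were tested as log2(FPKM + 1), a scale that understates changes of low genes, with limma 3.58.1 under R 4.3.3 (trended empirical Bayes), over 12251 genes with a mean of at least 0.5 FPKM, which all 151 members passed. The 12 libraries entered 1 fit with 4 group means and 5 contrasts, with p-values Benjamini-Hochberg adjusted over all genes tested and a threshold of 0.05. Genes were named if they were in the lists, among the highest by mean, smallest in p, called, widest in range or at the edge of the rule. Other settings tried covered the libraries, scaling, pseudocount, filter and a replicate block. Those that change the fit of 10 libraries further, and limma-voom on it, were added after seeing the data. The test with 12 libraries was checked on simulated libraries, none of which was made to stand apart. The fit of 10 libraries was not checked in this way. The members and lists were chosen with earlier results of these data known. Sequences came from RefSeq (GRCm38.p6) and GENCODE M21 transcripts, and figures from matplotlib 3.10.9.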

Additional observations from a re-analysis of the deposited data

How the results depend on the processing

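With all 12 libraries, none of the 151 lincRNAs was called in any contrast under another pseudocount, filter, scaling, robust moderation, limma-voom or a fit of only the contrast's groups. Array weights gave 2 calls for KOHF against WTHF and 16 for KOHF against KOVC. Leaving out 1 library gave 0 to 40 calls for KOVC against WTVC, 0 to 38 for WTHF against WTVC and 0 to 32 for the interaction, in each case the highest without WTVC1, and 0 to 1 for KOHF against KOVC, the 1 without WTVC2. For KOHF against KOVC, 6 lincRNAs were called without WTVC2 and WTVC3, 1 also without KOHF1, 5 by limma-voom, 10 after rescaling to TPM (4 higher, 6 lower), 10 by median-of-ratios scaling (7 higher, 3 lower), 6 by quantile normalization and 6 with a pseudocount of 0.1. Leaving out 1 more of the 10, other than WTVC1, gave 0 without KOVC1 or KOVC2, 1 without WTHF1, WTHF2 or KOHF1, 3 without WTHF3, 4 without KOHF2 or KOHF3 and 9 without KOVC3. For KOHF against WTHF the same step gave 1 without KOVC3 and 0 otherwise. TPM moved the median difference of all genes by over 0.1. The cause was not tested. With a replicate block 1 lincRNA was called in the 10 libraries and none in the 12. The numbers are not a pairing in the data: of 18 pairs of same-numbered libraries, 2 correlated above 0.1 (−0.50 to 0.13). An FPKM limit of 0.5 gave 229 lincRNAs, 2 gave 94, and the 10 libraries alone 139.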
